A study of Caenorhabditis elegans with 4 samples.

Results

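The peaks described here are the binding regions of MIX-1 called on the central 33.3% of the X chromosome of Caenorhabditis elegans, here central X. They were chosen by position alone, as the regions of the series-wide peak list on X whose midpoints lay above base 5906000 and at or below base 11812000 of the WS220 assembly. This gave 313 peaks of the 2705 in the list, beside 763 on the rest of X and 1299 on chromosomes II to V. The same bounds took in 245 of the 2310 regions listed for replicate 1 and 87 of the 706 listed for replicate 2.

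Binding was profiled by ChIP-seq, the sequencing of DNA fragments that an antibody pulls down with crosslinked chromatin, in embryos of mixed stages of the wild-type strain N2 grown at 20 degrees Celsius. The 2 ChIP libraries were made with SDQ3892, an affinity-purified rabbit polyclonal antibody raised against MIX-1. They were accompanied by 2 input libraries of the same strain and stage, from which no deposited values were used here. The labels describe the worms as a population of males and hermaphrodites. How far each sex contributed to the signal was not tested.

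MIX-1 is an SMC-family ATPase of condensin, the ring-shaped complex that folds and compacts chromosomes. In C. elegans it is shared by the condensins that act on every chromosome in mitosis and meiosis and by a specialised condensin for dosage compensation, which also contains the SMC protein DPY-27. The dosage compensation complex is loaded on the X chromosomes of hermaphrodites at strong recruitment sites with the help of SDC-2, and from there spreads to many weaker sites, often at active promoters, where it lowers X-linked transcription. Wild-type embryos hold all of these complexes, and binding of MIX-1 as a member of one complex or another cannot be told apart in these data.

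The first question was whether the centre of X was occupied as densely as the rest of the genome parts set beside it. MIX-1 peaks were less dense on central X than on the rest of X and far denser than on chromosomes II to V. These are the autosomes meant below, and chromosome I was not among the parts compared. Central X held 53.0 peaks per Mb in the series-wide list (exact Poisson 95% interval 47.3 to 59.2), and the rest of X held 64.6 (60.1 to 69.3). The left and right outer parts of X were close to each other, at 66.0 (59.6 to 72.9) and 63.1 (56.9 to 69.9) peaks per Mb. The density ratio of central X over the rest of X was 0.820 (exact 95% interval 0.717 to 0.937), a difference past the threshold in a two-sided exact binomial test (p = 0.00323, adjusted p = 0.00414 over 9 density tests).

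The deficit was carried by both replicate lists in direction, but only replicate 1 passed the test alone. In replicate 1, central X held 41.5 regions per Mb and the rest of X 51.6, a ratio of 0.803 (0.690 to 0.933, exact binomial test, adjusted p = 0.00414). In replicate 2 the densities were 14.7 on central X and 17.4 on the rest of X, a ratio of 0.845 (0.650 to 1.09, exact binomial test, adjusted p = 0.194). The mean ratio of the replicates was 0.824 ± 0.0293 (SD, n = 2). These tests count regions as independent, which neighbouring regions are not, and no test over the 2 replicates was made. The ratio was 0.849 (0.707 to 1.02) in the higher-scoring 50% of the series-wide list and 0.816 (0.613 to 1.08) among peaks met by both replicate lists, neither past the threshold.

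Against the autosomes the difference ran the other way in every list. Chromosomes II to V together held 19.3 series-wide peaks per Mb (18.2 to 20.4), so that central X was 2.75 times as dense (2.42 to 3.11, exact binomial test, adjusted p = 2.86e-46). The replicate lists gave ratios of 2.38 and 3.04, or 2.71 ± 0.471 (SD, n = 2). Set against the central 33.3% of each of chromosomes II to V, which held 22.2 peaks per Mb, central X was 2.39 times as dense (2.06 to 2.75, exact binomial test, adjusted p = 5.84e-30). Over that matched stretch the replicates gave 2.30 (1.95 to 2.70) and 2.83 (2.12 to 3.76).

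**Figure D1:**
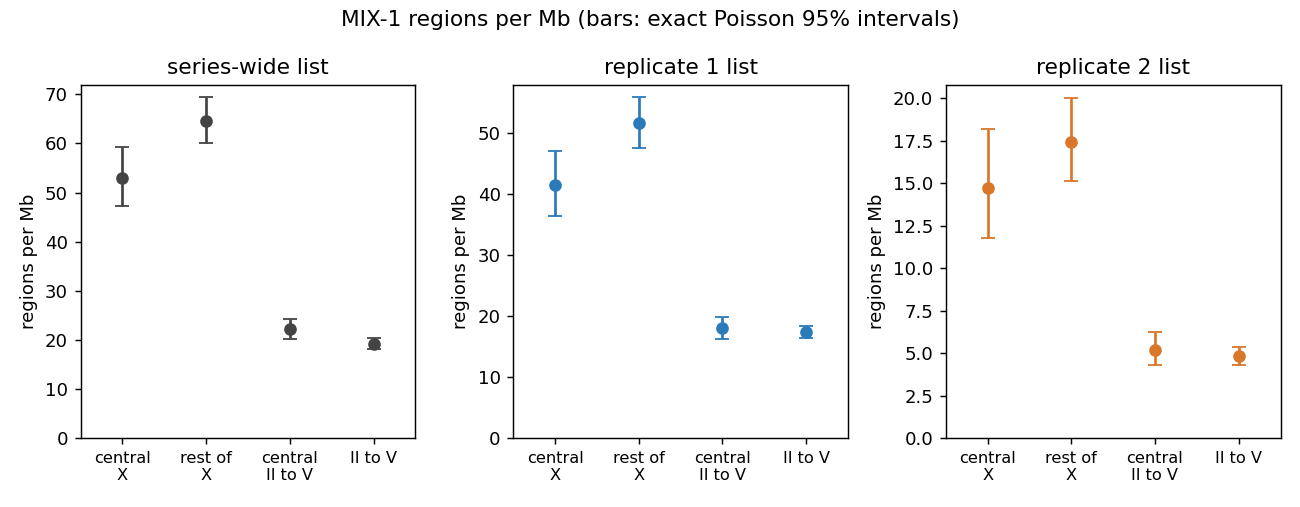
Called MIX-1 regions per Mb on central X, the rest of X, the central 33.3% of chromosomes II to V and the whole of chromosomes II to V, in the 3 lists, with exact Poisson 95% intervals as bars. Central X lay below the rest of X and above both autosomal groups in every list, with the scale of the vertical axis differing between lists because the lists differ in length.

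Peaks covered 2.15% of central X, against 2.43% of the rest of X and 0.730% of chromosomes II to V. These shares came from 126.9 kb of peaks with a mean width of 405.3 bp on central X, 286.5 kb with a mean of 375.5 bp on the rest of X and 491.96 kb with a mean of 378.7 bp on the autosomes. In replicate 1 the covered shares were 2.16% of central X and 2.58% of the rest of X. In replicate 2 they were 0.941% of central X and 0.985% of the rest of X. Central X was therefore the less covered part of X in each list, but the gap in replicate 2 was small.

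Along central X the peaks were spread over its whole length. Cut into bins of 500 kb from left to right, the 11 full bins held 26.1 ± 3.78 series-wide peaks (SD over bins, range 21 to 35), against 32.7 ± 7.04 over 22 full bins of the rest of X (range 23 to 51) and 9.59 ± 6.22 over 132 bins of chromosomes II to V (range 1 to 55). The densest bin ran from 7.906 to 8.406 Mb, with 35 series-wide peaks, 26 regions in replicate 1 and 12 in replicate 2, the highest of the 12 bins in the series-wide and replicate 2 lists. The sparsest ran from 6.406 to 6.906 Mb, with 21 series-wide peaks, 7 regions in replicate 1 and 5 in replicate 2. There, 12 of the 21 peaks met neither replicate list.

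The replicates did not order the bins alike. Replicate 1 had its highest count, 32, in the leftmost bin, where replicate 2 had 8. Replicate 2 had its lowest count, 2, between 7.406 and 7.906 Mb, where replicate 1 had 16. The last bin, of 406 kb, held 26 series-wide peaks, or 64.0 per Mb, which is close to the density of the rest of X.

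**Figure D2:**
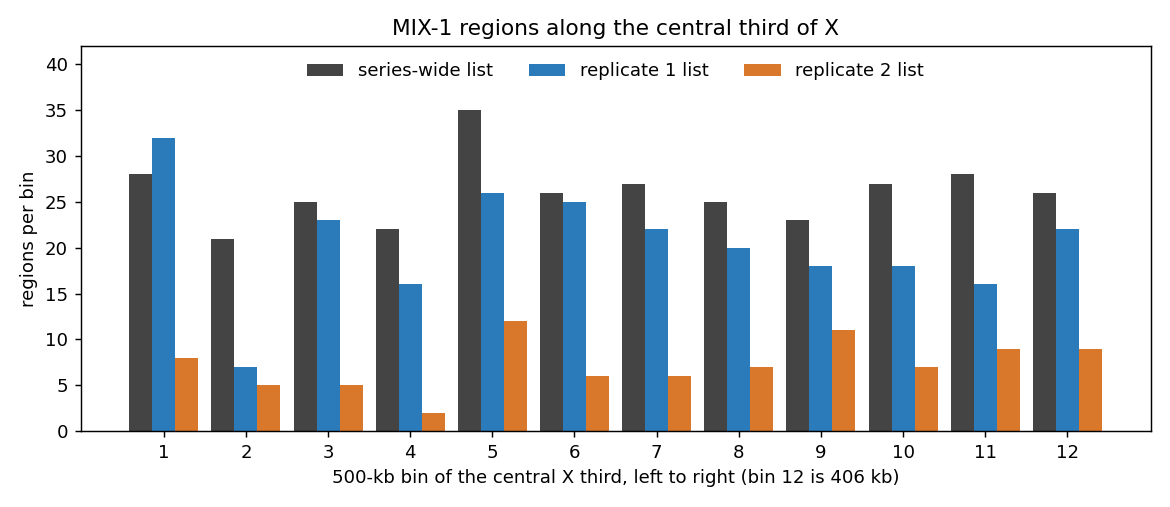
Number of called MIX-1 regions in each 500-kb bin of central X, left to right, in the series-wide, replicate 1 and replicate 2 lists. Series-wide counts stay between 21 and 35 across the full bins, whereas replicate 1 drops to 7 in bin 2 and replicate 2 to 2 in bin 4.

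The scores of central X peaks were mostly low, with a few far above the rest. A score is the authors' own value for each region, on a scale that is not stated, and is used here to rank regions within a list. The median series-wide score on central X was 7.86 (order-statistic 95% interval 7.24 to 9.08). Of the 313 peaks, 195 scored under 10, 12 over 50 and 5 over 100. Among the 19 X peaks that scored over 100, 5 lay on central X (26.3%), and of the 100 highest on X 25 did, beside 29.1% of all X peaks.

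The highest-scoring MIX-1 peak of central X lay at X 9465282 to 9466317, and measured 1036 bp, with a score of 176.8 in the series-wide list. It scored 3100 in replicate 1, where the scores of that list pile up, and 2066 in replicate 2. The peak at X 8035793 to 8037436 came next, with a score of 175.6 over 1644 bp and 3100 in both replicates. X 11093678 to 11094609 followed with 173.1 over 932 bp, and X 6295455 to 6297431 with 161.4 over 1977 bp, the widest of these strongest peaks. Both also stood at 3100 in replicate 1 and in replicate 2, so the order of these sites by series-wide score has no counterpart in the replicates.

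These 4 strongest sites were spaced along central X at distances of 1.74, 1.43 and 1.63 Mb. After them the scores dropped to 107.1, for X 9466606 to 9468079, and then to 97.5 for X 11095186 to 11095849. In replicate 1 these peaks scored 2363 and 2401, and in replicate 2 they scored 816.4 and 1249. Next stood X 11605338 to 11606532 at 87.8, the strongest peak that was not within 10 kb of one of the 4 sites. Its replicate scores were 1514 and 737.8, and it measured 1195 bp.

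The remaining 5 of the 12 strongest peaks that met both replicate lists were narrower and weaker. Their series-wide scores were 76.5 at X 6292083 to 6292562, 69.4 at X 9743324 to 9743826, and 67.6 at X 9296585 to 9296911. Those at X 7181521 to 7182075 and X 8029016 to 8029359 scored 55.0 and 51.0. They measured 327 to 555 bp. Replicate 1 gave them scores of 508.1 to 1058, and replicate 2 gave them 93.2 to 435.9. Over all 12 the median of the series-wide widths was 798 bp, against 289 bp over the 313 peaks. The 12 were chosen by score, and score and width are correlated across these peaks.

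Strong MIX-1 peaks of central X came in company. Each of the 4 sites had a second peak scoring over 50 within 10 kb, and each of these second peaks met both replicate lists. The second peak stood 1.54 kb to the right of the main one at the 9.47-Mb site, with 60.6% of its score, and 1.37 kb to the right at the 11.09-Mb site, with 56.3%. At the 6.30-Mb site it stood 4.12 kb to the left, with 47.4% of the main score, and at the 8.04-Mb site 7.43 kb to the left, with 29.1%. So 8 of the 12 strongest peaks lay at 4 places.

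Weaker peaks flanked these pairs. Within 10 kb of the main peak there were 5 other peaks at the 6.30-Mb site, 7 at the 8.04-Mb site, 3 at the 9.47-Mb site and 4 at the 11.09-Mb site. Replicate 2, the shorter list, kept the main and the second peak at every site. It held 3 regions at the 6.30-Mb site, of which 1 crosses the edge of the 10-kb window and is not drawn, 5 at the 8.04-Mb site, 2 at the 9.47-Mb site and 2 at the 11.09-Mb site. At the 8.04-Mb site the flanking peaks that scored 28.1 and 14.2 both met replicate 2. The second peak there scored 93.2 in replicate 2, below the median of 113.0 for the central X regions of that list. Elsewhere on X, 7 peaks scored over 150, with 1 to 4 other peaks within 10 kb, and 1 of the 7 had a second peak over 50. On chromosomes II to V, 3 peaks scored over 150 and had no other peak within that distance. The bounds of 150 and 50 were picked with the values in view, and these counts are a description of few sites without a test.

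**Figure D3:**
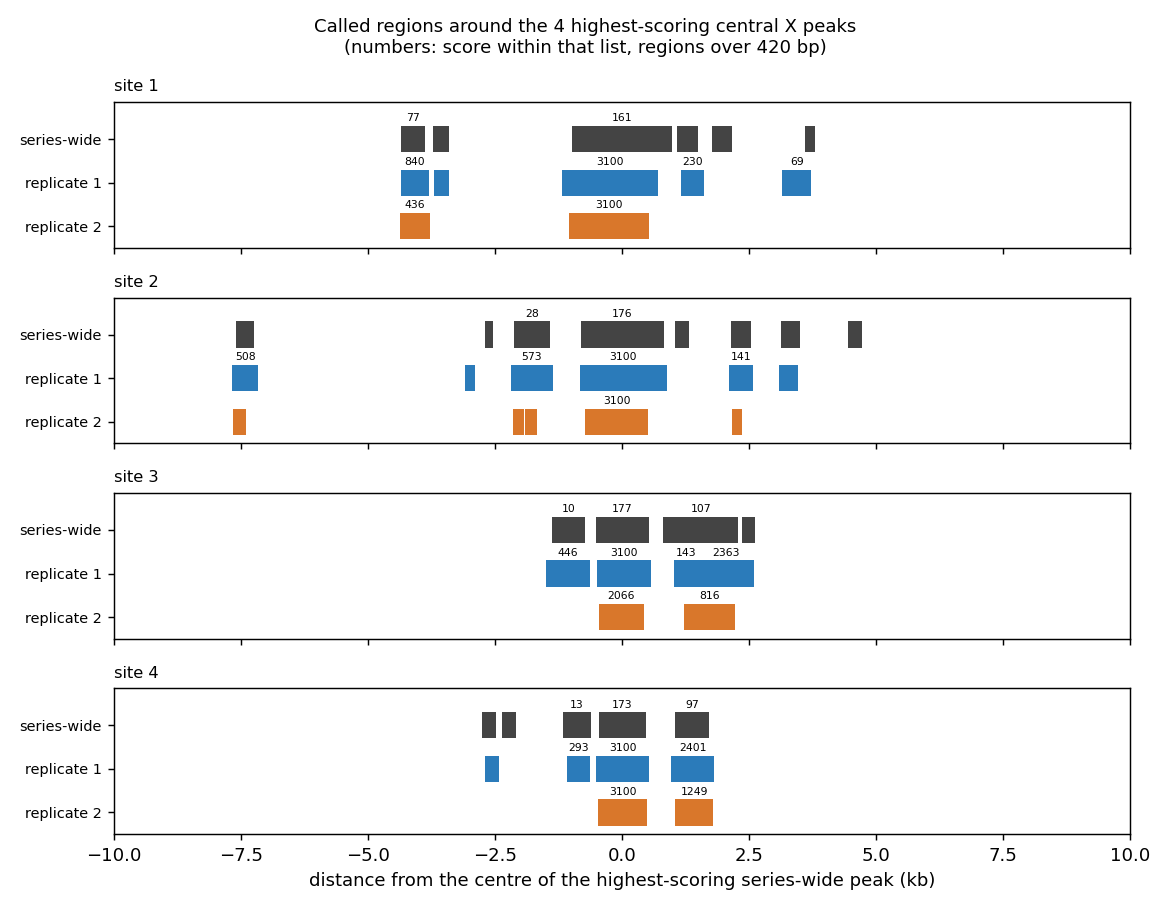
Called regions within 10 kb of the centres of the 4 central X peaks that scored over 150, left to right along X from top to bottom, with the series-wide, replicate 1 and replicate 2 lists as rows and scores of wider regions printed above them. The main region and the second region recur in all 3 lists at each site, and most of the flanking series-wide regions are missing from replicate 2. Among the regions drawn, replicate 2 has flanking ones only at the site second from the top. These 3 regions lie at the flanking series-wide peaks that scored 28.1 and 14.2, and the other flanking peaks there are missing from it.

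Width and score did not always go together. Median width on central X was 289 bp (275 to 305), and 13 of the 313 peaks were wider than 1 kb. Those 13 made up 27.0% of all peak length on central X. Across the 313 peaks, score and width had a Spearman correlation of 0.609, given as a description, since both come from the same calls and the peaks are not independent.

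The widest peaks were not the strongest by series-wide score. The widest of all, X 10361059 to 10369200, measured 8142 bp and scored 11.5, which ranked 99 among the 313. Replicate 1 had 2 regions there, the higher at 1396, and replicate 2 had 4, the highest at 635.1, so the broad stretch was present in both lists. The second widest, X 7352407 to 7358687, measured 6281 bp and scored 13.8; it met 4 regions of replicate 1, the highest at 1299, and none of replicate 2.

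Of the 5 peaks wider than 2 kb, 2 had series-wide scores among the highest 25%. These were X 9184905 to 9188709, 3805 bp wide with a score of 28.1, and X 11785609 to 11787849, 2241 bp wide with 28.4. Each scored 3100 in replicate 1, as did only 4 other replicate 1 regions of central X, the main peaks of the 4 strongest sites. In replicate 2 the same peaks scored 1202 and 295.0. By series-wide score they ranked 30 and 28. The series-wide and replicate 1 lists therefore placed these broad peaks differently, and the way each caller scored wide regions is not given in the sources used here. At the other end, 6 peaks shared the smallest width, 146 bp, with scores of 3.64 to 8.38. Replicate 1 met 4 of them and replicate 2 met none. The leftmost, X 6151172 to 6151317, scored 4.07 and met a 313-bp region of replicate 1 that scored 65.1.

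**Figure D4:**
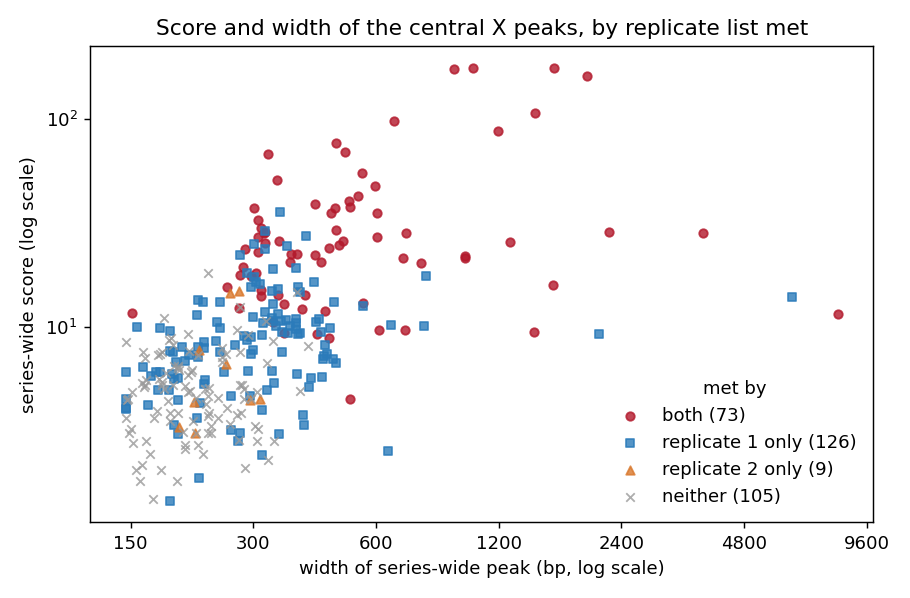
Series-wide score against width for the 313 central X peaks on log axes, with symbols for the replicate lists that met each peak. Peaks met by neither list sit at the lower left, with widths up to 409 bp and scores up to 18.1, and the peaks wider than 2 kb lie well below the 4 highest scores.

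Support from the replicate lists was then counted, an overlap of at least 1 bp being taken as a match. Of the 313 central X peaks, 73 (23.3%, exact 95% interval 18.8 to 28.4) met regions of both replicates, against 22.3% of all nuclear peaks of the series-wide list. Replicate 1 met 199 peaks (63.6%, background 64.2%) and replicate 2 met 82 (26.2%, background 25.6%). A further 105 (33.5%, background 32.5%) met neither list. The members' shares were thus near those of the whole list. How the ChIP libraries entered the series-wide list is not given in the sources used here, so the overlap is not independent of it.

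Central X did not differ detectably from the rest of X in this support. The share met by both lists on central X differed by -0.137 percentage points from the 23.5% of the rest of X (Newcombe 95% interval of the difference -5.49 to 5.62). Against chromosomes II to V, with 20.6%, it was 2.69 points higher (-2.22 to 8.11). Read the other way, 83.3% of the replicate 1 regions of central X met a series-wide peak, against 84.6% on the rest of X and 66.8% on chromosomes II to V. The last difference, 16.5 points (10.6 to 21.4), was the largest of the 38 differences in shares that were computed, whose intervals were not adjusted for their number. In replicate 2 these shares were 97.7% on central X, 98.5% on the rest of X and 91.7% on chromosomes II to V, with an interval of the difference between central X and the autosomes of -0.252 to 9.86 points.

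The replicate lists were also set against each other, without the series-wide list. Shares over each whole replicate list were not computed. Of the replicate 1 regions of central X, 74 of 245 (30.2%, 24.5 to 36.4) met a replicate 2 region, against 30.7% on the rest of X and 23.5% on chromosomes II to V. The difference was -0.452 points from the rest of X (-7.04 to 6.52) and 6.71 points from the autosomes (0.754 to 13.2), the second of which excludes 0. Regions of both lists were also denser on central X than on the autosomes, as given above, and the part of density in this overlap was not tested. Of the replicate 2 regions of central X, 76 of 87 (87.4%, 78.5 to 93.5) met replicate 1, against 90.3% on the rest of X and 81.6% on chromosomes II to V, with differences of -2.93 points (-12.2 to 4.32) and 5.76 points (-3.65 to 12.9).

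Replicate support was more frequent among peaks with a high series-wide score. The score and the replicate lists may share reads, so this rise is a description and not independent support. Median width also differed, at 219 bp in the lowest-scoring 25% and 385 bp in the highest. Shares by score class were not computed outside central X, so the rise is not a trait of its peaks. In the highest-scoring 25% of the central X peaks, 75 of 78 (96.2%, 89.2 to 99.2) met replicate 1 and 56 of 78 (71.8%, 60.5 to 81.4) met replicate 2. In the lowest 25% these counts were 23 of 79 (29.1%, 19.4 to 40.4) and 6 of 79 (7.59%, 2.84 to 15.8). The median series-wide score was 24.0 among peaks met by both lists, 8.28 among those met by replicate 1 only, 4.46 among the 9 met by replicate 2 only and 4.84 among those met by neither. Their median widths were 459, 303.5, 257 and 209 bp.

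**Figure D5:**
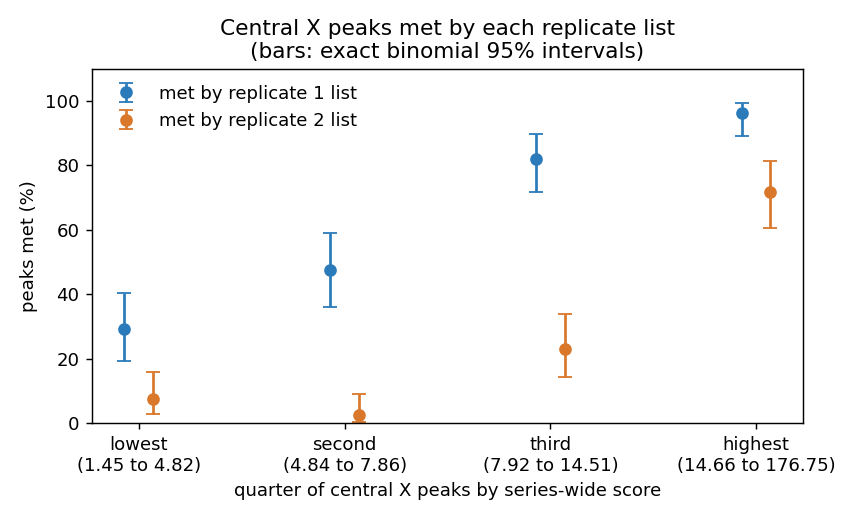
Share of central X peaks met by a region of replicate 1 or replicate 2, in 4 equal classes of series-wide score, with exact binomial 95% intervals as bars. The share met by replicate 1 climbs from 29.1% to 96.2%, and that met by replicate 2 stays under 10% in the lower 2 classes and reaches 71.8% in the highest.

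Positions were compared for the 68 peaks that met exactly 1 region in each replicate. The midpoints of the replicate regions were 34.8 bp apart in the median, and 90% of them were within 131.8 bp. Both regions had to overlap the same series-wide peak, so large distances were mostly left out by this choice. Replicate scores of the 73 peaks in both lists had a Spearman correlation of 0.780, and the series-wide score had 0.728 with replicate 1 over 199 peaks and 0.696 with replicate 2 over 82. These correlations are across regions that may share their reads, and are given without a test.

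A few peaks without any replicate support scored well. The highest score among them, 18.1, belonged to X 11072731 to 11072962, followed by 14.7 for X 6840883 to 6841266 and 12.5 for X 8041062 to 8041339, in the flank of the 8.04-Mb site. The peaks at X 9604777 to 9604957 and at X 8157063 to 8157385 scored 11.0 and 10.6. They measured 181 to 384 bp. The first ranked 60 among the 313 peaks, so the upper part of the central X list was nearly free of peaks called in neither replicate.

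In the series-wide list, central X peaks stood farther apart than those of the rest of X. The median gap to the next peak on the right was 11963 bp on central X (10125 to 14065), against 9181 bp on the rest of X (8048 to 10146) and 27118 bp on chromosomes II to V. In replicate 1 the gap was 11955 bp (10007 to 14661) on central X and 10846 bp (9457 to 13064) on the rest of X. Replicate 2 gave 50466 bp (30654 to 70634) and 35546 bp (28612 to 53575). The intervals overlapped widely in both replicates. A neighbour within 5 kb was found for 144 of the 313 peaks (46.0%, background over all nuclear peaks 47.8%), against 54.1% on the rest of X, a difference of -8.12 points (-14.6 to -1.55). The lower density of central X given above goes with this share, and its part in it was not tested. The share did not differ detectably from the 45.7% of chromosomes II to V (difference 0.356 points, -5.72 to 6.51). Peaks there were sparser but unevenly spread, with 1 to 55 per 500-kb bin. No comparison at matched density was made. In the replicate lists the difference from the rest of X was -2.41 points in replicate 1 (-9.74 to 4.98) and -4.27 in replicate 2 (-15.0 to 7.63), and it was not detectable there.

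Joined wherever gaps were at most 5 kb, the 313 peaks formed 169 single peaks, 38 pairs, 12 triplets and 6 larger groups of 4 to 8 peaks. The larger groups held 32 peaks, among them 8 of the 12 strongest. Among these 6 larger groups, the longest was the 8.04-Mb site, 8 peaks over 12324 bp, of which 34.0% was covered. The tightest of the 6 by cover was the 9.47-Mb site, with 4 peaks over 4002 bp and 85.8% covered. Some pairs and triplets were longer or more fully covered. A group of another kind lay at X 6826344 to 6828989, where 5 peaks in 2646 bp scored only 1.81 to 5.58 and none met a region of either replicate. That group falls in the sparsest bin and was noted after its values had been seen.

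The widest stretch of central X without a peak was 118978 bp, between X 8426613 to 8426927, with a score of 2.40, and X 8545906 to 8546364, with 24.0. Left of it, the low peak and its neighbour X 8426271 to 8426464, with a score of 6.73, met a single replicate 1 region in common and no replicate 2 region. On its right, X 8545906 to 8546364 and X 8551723 to 8552001, with a score of 17.8, both met both lists. At the edges of the chosen interval, the first member, X 5913529 to 5914172, scored 2.51 and lay 65998 bp from the last peak outside, which scored 6.76. The last member, X 11797981 to 11798325, scored 11.5, above the central X median, and lay 73836 bp from the next peak outside, which scored 4.09. No peak therefore straddled either bound.

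In score and width the central X peaks did not differ detectably from those of the rest of X. The highest-scoring 25% of all nuclear peaks, from a score of 14.12 upwards, held 81 of the 313 (25.9%, background 25.1%), against 27.0% of the rest of X and 22.7% of chromosomes II to V. The difference from the rest of X was -1.12 points (-6.71 to 4.83) and that from the autosomes 3.17 points (-1.95 to 8.74). The widest 25%, from 370 bp upwards, held 84 (26.8%, background 25.0%), against 29.6% and 22.8%. Here the differences were -2.78 points from the rest of X (-8.47 to 3.26) and 4.05 points from the autosomes (-1.13 to 9.67). The same shares were taken within each replicate list. For the highest-scoring 25%, central X differed from the rest of X by -5.51 points in replicate 1 (-11.7 to 1.22) and 0.402 in replicate 2 (-10.1 to 12.0). For the widest 25% the differences were -2.88 points in replicate 1 (-8.90 to 3.67) and 5.33 in replicate 2 (-3.98 to 16.1).

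Median scores and widths are given for each list. The series-wide median was 7.86 on central X, 7.72 on the rest of X (7.28 to 8.43) and 6.85 on chromosomes II to V (6.47 to 7.28). In replicate 1 it was 130.5 on central X, 131.2 on the rest of X and 110.9 on the autosomes, and in replicate 2 the 3 medians were 113.0, 111.6 and 117.7. Median widths were 289, 278 and 245 bp in the series-wide list, 421, 407 and 357 bp in replicate 1 and 455, 404 and 442.5 bp in replicate 2. The order of central X and the autosomes in score was thus not the same in the replicates.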

How the data were processed

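Called regions were deposited by the authors as 1 list for each of the 2 ChIP libraries and 1 for the whole series. BWA and the ce10 build are named in the submitters' processing notes. Positions follow WormBase WS220, as stated per the file headers. The source columns of the deposited files name MACS for the replicate lists and MACS v2 for the series-wide list; parameters, controls and any pooling were not given in the sources used here. First and last bases of the deposited regions are other values, positions and not measurements, and the score of each region is the authors' own, on no stated scale. No read counts were used, so depth is unknown, and the intervals reflect counting error over regions alone. The labels do not say whether the replicates came from separate cultures, so their spread may be technical.

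Regions were assigned by midpoint. A chromosome's length was taken as its highest region end over the lists. Densities were compared by two-sided exact conditional binomial tests, with Benjamini-Hochberg adjustment over 9 tests, and shares by Newcombe 95% intervals, in SciPy 1.17.1. The ratio and share intervals were tested on simulated independent counts. That test does not cover the dependence of neighbouring regions. Named peaks were the 12 highest-scoring members met by both replicates, the 5 highest met by neither, and those at the bounds, at the widest gap, at the extremes of width and in the densest groups. The bounds, lists and tests were chosen with earlier results of these data known. Chromosome I and mitochondrial regions entered only the background shares (nuclear) and totals. A genome sequence and gene annotation of WS220 were not used here, so no sequence, gene or motif is given for a peak.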

Additional observations from a re-analysis of the deposited data

How the results depend on the processing

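Of 47 recalculations of 7 comparisons, 40 kept the direction and side of the threshold, or missed it as before. The density ratios of central X over chromosomes II to V (2.38 to 3.21) and over their central 33.3% (2.30 to 2.83) passed the exact binomial test under every alternative run. The ratio over the rest of X missed it in the higher-scoring 50% of the list (0.849), among peaks met by both replicate lists (0.816) and with replicate 2 alone, the single lists giving 0.803 to 0.845. These settings hold fewer regions and had wider intervals, and their ratios lay on both sides of the 0.820 of the full list. The reason for the misses was not tested. The difference in the share with a neighbour within 5 kb missed its threshold in the higher-scoring 50% (-3.01 points), with neighbours within 2 kb (-1.69 points) and in each replicate list alone (-4.27 to -2.41 points); the cause was not tested. Differences in replicate support, score and width between central X and the rest of X did not pass under any alternative, with signs that went both ways. No paired analysis was possible because the values are lists of regions and the input libraries have none here.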

Other observations

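Some regions of the replicate lists on central X met no series-wide peak. They are the remainder of the shares meeting a series-wide peak given above, and they were counted in the replicate densities. Replicate 1 had 41 such regions of 245 (16.7%) and replicate 2 had 2 of 87 (2.30%), and none of them met a region of the other replicate. In replicate 1 the met shares were 83.3% on central X, 84.6% on the rest of X and 66.8% on chromosomes II to V. In replicate 2 they were 97.7%, 98.5% and 91.7%. Central X was thus near the rest of X, and the share over each whole replicate list was not computed. The 41 had a median replicate 1 score of 63.7, against 130.5 over all 245. The highest was X 7017492 to 7018256, 765 bp wide, with a replicate 1 score of 191.5. The 2 of replicate 2, at X 6622553 to 6622745 and X 9941248 to 9941472, scored 54.3 and 50.4.

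Some replicate 1 regions of central X met more than 1 series-wide peak. There were 6 of them, each overlapping 2 series-wide peaks in full or in part. The strongest of these was X 9467280 to 9468385 at the 9.47-Mb site, with a replicate 1 score of 2363. The widest was X 11441574 to 11443695, 2122 bp wide with a score of 1075. It met the single replicate 2 region of central X that also overlapped 2 series-wide peaks.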
